A study of Petromyzon marinus with 21 samples.

Results

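Embryos of the sea lamprey Petromyzon marinus, a vertebrate without jaws, taken whole at D3, 3 days after fertilization, were compared with embryos taken at D2.5, 2.5 days after fertilization. The members were the 3 lanes labelled D3-1 to D3-3 and the 3 labelled D2.5-1 to D2.5-3, which are 6 of the 21 samples of the series. All 43 target probes (class Endogenous) and 6 reference probes (class Housekeeping) were described, 49 of the 63 probes in the file. Transcripts were counted on the NanoString nCounter, which tags each transcript with a barcoded probe and counts the barcodes without amplification. The labels give biological triplicates, total RNA, embryos kept in dilute Holfretter's solution, and no treatment, strain or sex. The labels do not say how many embryos made up a sample. The file names a gene for 19 target probes and none for the other 24, and gives no genome position for any probe.

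Early vertebrate embryos run on maternal RNA until their own genome is switched on, after which maternal transcripts decay and zygotic ones accumulate. In the sea lamprey, cells that will form the body also discard part of the germline genome during the first days of development, and the discarded part carries genes expressed in the germline. A set of 6 probes carries names from germ cell biology, namely 3 probes of SYCP1 (which joins paired chromosomes in meiosis), 1 of HFM1 (a helicase of meiotic crossing over) and those of Piwi-1 and Piwi-2 (which silence transposons in germ cells). Gene roles given here are those known from jawed vertebrates, mostly mammals. Whole embryos were measured, so a change in the number of cells of a type and a change in RNA per cell cannot be told apart.

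Lanes of 1 stage differed widely in signal. Total target counts were 1545, 4678 and 15415 in D3 replicates 1, 2 and 3, against 2558, 2249 and 9961 in D2.5 replicates 1, 2 and 3. Lane background, the mean + 2 SD of 8 negative controls in raw counts, was 11.4, 10.3 and 17.8 in D3 replicates 1, 2 and 3, against 7.78, 16.3 and 13.6 in D2.5 replicates 1, 2 and 3. Of the 43 target probes, 25, 37 and 38 exceeded it in the D3 lanes and 34, 15 and 40 in the D2.5 lanes, with 25 above it in all 3 D3 lanes and 15 in all 3 D2.5 lanes. Raw EF1A_A, a probe of elongation factor 1 alpha, was 180, 863 and 581 at D3 and 773, 821 and 825 at D2.5. D3 replicate 1 had the fewest counts of both EF1A_A and HCFC-1. The geometric mean of its positive controls, which are spiked in at fixed amounts, was 657, and over all 6 lanes that mean spanned 657 to 813. Replicate 3 stood apart at both stages. Over the probes tested on the reference scale, the median ratio of replicate 3 to the mean of replicates 1 and 2 was 6.67 at D3 and 7.76 at D2.5.

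The level of the whole panel differed between replicate numbers, and no test separated D3 from D2.5. EF1A_A and HCFC-1, the reference probes above background in every embryo lane, gave each lane a factor, and counts divided by it are called scaled. Averaged over 38 target probes as log2(scaled count + 1), the panel level was 5.37, 5.00 and 7.91 in D3 replicates 1, 2 and 3, against 4.12, 3.48 and 6.62 in D2.5 replicates 1, 2 and 3. Replicate 3 was highest and replicate 2 lowest at both stages, and the groups overlapped. Means were 6.09 ± 1.58 at D3 and 4.74 ± 1.66 at D2.5 (SD, n = 3 each), a difference of 1.36 (exact permutation test, two-sided, p = 0.4, where 3 against 3 cannot go below 0.1). Without D3 replicate 3 the difference was 0.45, and without D2.5 replicate 3 it was 2.30. Within a replicate number D3 was higher by 1.25, 1.52 and 1.29, a mean of 1.36 ± 0.15 (SD over 3 pairs), with an exact two-sided permutation p of 0.25, which is the lowest that 3 pairs allow. Scaled to the positive controls in place of the reference probes, the same differences were −0.012, 1.76 and 0.96, so that pair 1 showed no higher level at D3.

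**Figure D1:**
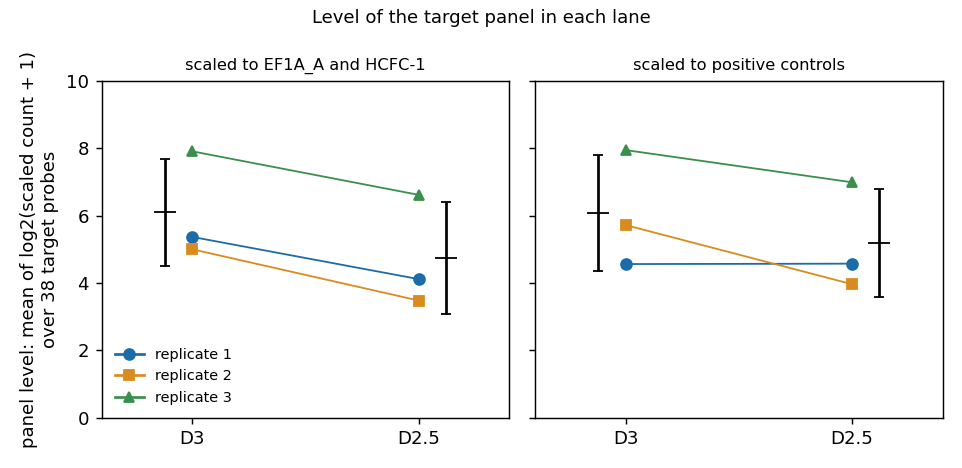
Panel level of each lane, as log2(scaled count + 1) averaged over 38 target probes (y axis), at D3 (left) and D2.5 (right), with lanes of 1 replicate number joined and the black bars giving mean ± SD (n = 3). With EF1A_A and HCFC-1 scaling all 3 lines lie higher at D3, by 1.25 to 1.52, whereas with the positive controls the line of replicate 1 is flat.

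Relative to the reference probes, most of the panel was higher at D3, but no probe passed the test when the lanes were treated as independent. Of 41 probes tested, 38 had a positive log2 fold change, with a median of 1.41, and 0 passed (edgeR, Benjamini-Hochberg, 0% called; lowest adjusted p = 0.376). At an unadjusted p under 0.05 edgeR gave 0 as well, and limma and DESeq2 also called 0. For no tested probe did all D3 lanes lie above all D2.5 lanes (0%). The size of the shift turned on whether replicate 3, high at both stages, was left out of only 1 of them. Without D3 replicate 3 alone the median was −0.16 with 12 of 41 positive, and without replicate 3 of both stages it was 1.52 with 38 positive. Without D2.5 replicate 3 alone the median was 3.13 with 39 positive, and 26 reached an unadjusted p under 0.05 in edgeR while 0 passed after adjustment.

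With replicate number as a blocking factor in the 6 lanes, 36 of the 41 probes rose and 0 fell (edgeR, 87.8% called higher and 0% lower), 35 of them target probes. The numbers met the rule for pairs in the values (correlations of deviations from the stage means 0.173, 0.502 and 0.794 over 38 probes), not in the labels. The same counts set the pairing and were then tested, so p-values of the blocked fits hold only given that pairing and may be too low. The median fold within a number was 2.76, 3.44 and 2.59 for replicates 1, 2 and 3, and 34 of 41 probes were higher at D3 in all 3 pairs. Leaving out both lanes of replicate 1, 2 or 3 gave 33, 35 and 26 rises, and 26 of the 36 remained in all of these fits. Scaled to the positive controls, the blocked fit gave 1 rise and 1 fall among 43 probes (4.65% called), with a median log2 fold change of 0.99, 37 of 43 positive and 9 at an unadjusted p under 0.05. On raw counts 19, 38 and 37 of 43 probes were higher at D3 in pairs 1, 2 and 3. A lane's factor comes from 2 reference probes and moves every probe of that lane together, background included. Scaled by it, background was 23.7, 6.49 and 20.1 in the D3 lanes, against 5.87, 10.5 and 9.79 in the D2.5 lanes. The 6 probes too low to be tested, above background in at most 1 lane, had ratios of stage means from 1.72 (comp288706) to 3.73 (comp262153). Whether the rises of low probes exceed such shifts was not tested. Each probe had 2 residual degrees of freedom in the blocked fit of the 6 lanes, and fewer when a number was left out. edgeR shared information on spread between probes, so its p-values rest on more than a probe's own 2. Probes that move together with the lane factor are not independent, which may also make these p-values too low.

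**Figure D2:**
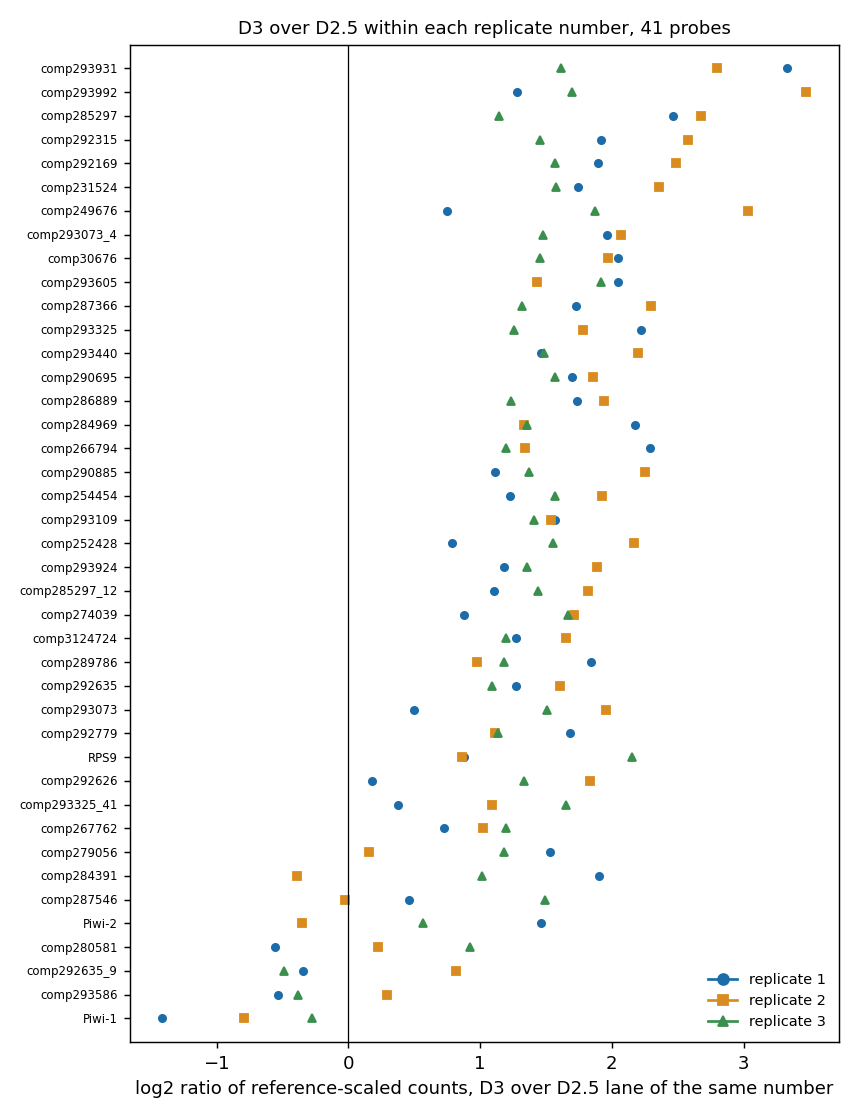
Log2 ratio of the reference-scaled count at D3 over that at D2.5 within each replicate number (x axis) for the 41 tested probes (y axis, ordered by the mean of the 3 ratios). Most probes have 3 points right of 0. comp293931 has the largest mean ratio and Piwi-1, at the bottom, is left of 0 in all 3 pairs with no D3 lane above background.

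Every tested probe without annotation rose with the number as a block, 21 of 21, as did 36 of 41 probes (87.8%) including these. Relative to the panel, the blocked fit called 2 of the 21 higher. Among the 21, comp293992 had the highest mean at D3. In the following, reference-scaled counts are given for replicates 1, 2 and 3 in that order. Log2 fold changes ± SE and adjusted p are those of the blocked edgeR fit unless another is named. A probe said to rise was called higher by that fit, given its pairing. Without the block no probe passed on the reference scale (edgeR, lowest adjusted p = 0.376). With the positive controls the blocked fit called 2 of 43. The 21 rises ran from 0.95 to 2.43 on the log2 scale. All 21 were higher at D3 in all 3 pairs, 14 exceeded background in all 3 D3 lanes and 8 in all 3 D2.5 lanes, and in all 21 replicate 3 was the highest lane of both stages. In the 3 blocked fits that each left out a number, 17 of them passed every time, beside 26 of the 36 calls overall. comp293992 had 359.7, 272 and 3754 in the D3 lanes, against 148, 24.5 and 1157 in the D2.5 lanes. Replicate 3 was the highest lane at both stages and the groups overlapped, while the fold within a number was 2.43, 11.1 and 3.24, with a log2 fold change of 2.09 ± 0.50 (adjusted p = 0.00014 in edgeR). For comp292315 the counts were 474, 277 and 2283 in the D3 lanes, against 125, 46.4 and 831 in the D2.5 lanes. They overlapped in the same way, with a log2 fold change of 1.97 ± 0.44. comp292169 gave 202, 112 and 1264 in the D3 lanes, against 54.3, 20.0 and 426 in the D2.5 lanes, a log2 fold change of 1.95 ± 0.41. At lower counts, comp284969 had 74.9, 34.1 and 281 in the D3 lanes, against 16.6, 13.5 and 109.9 in the D2.5 lanes, and its 1.57 ± 0.30 was lost when replicate 3 was left out of the block (edgeR adjusted p = 0.0579). comp293931 was singled out after its values were seen, as the probe with the largest blocked change, at 152, 49.3 and 824 in the D3 lanes, against 15.1, 7.08 and 269 in the D2.5 lanes. It rose by 2.43 ± 0.42 (edgeR adjusted p = 3.2e-06), with folds of 10.1, 6.96 and 3.06 within the numbers, and its D2.5 replicate 2 lay below background. Without the block the edgeR log2 fold changes of these 5 probes were 1.48 to 1.81 with an adjusted p of 0.376 each. The 3 remaining unannotated probes were not tested, comp243002, comp262153 and comp282841, none of which exceeded background in more than 1 of the 6 lanes.

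Both probes annotated as baculoviral IAP repeat-containing protein 1, a member of a family that blocks caspases, rose with the number as a block, as 87.8% of the panel did, and neither was called on the panel scale. comp285297_12 was among the most counted annotated probes, with 206, 173 and 1777 in the D3 lanes, against 95.7, 48.9 and 656 in the D2.5 lanes. Means were 719 ± 917 at D3 and 267 ± 338 at D2.5 (SD, n = 3 each), and the groups overlapped. Its log2 fold change was 1.45 ± 0.41 (edgeR adjusted p = 0.0010). comp285297, which shares the identifier stem, ranged from 8.22 to 113 at D3 and 1.29 to 51.0 at D2.5 and rose by 1.59 ± 0.31, with 2 of 3 D3 lanes and 1 of 3 D2.5 lanes above background. The cordon-bleu probes, for an actin nucleator that the file also annotates as an apoptosis inhibitor, gave 33.3, 19.6 and 206 in the D3 lanes, against 6.78, 7.73 and 89.8 in the D2.5 lanes for comp266794, a log2 fold change of 1.46 ± 0.43. For comp266794, D2.5 replicate 2 lay below background. comp287546 ranged from 5.69 to 81.0 at D3 and 5.80 to 28.7 at D2.5, above background in 1 of 3 D3 lanes and 2 of 3 D2.5 lanes. It passed at 0.95 ± 0.35 (edgeR adjusted p = 0.0094) and no longer did so without replicate 1 (edgeR adjusted p = 0.057) or replicate 3 (0.773), nor in limma (0.103). Myosin-7B (comp292635_13), a muscle myosin heavy chain, stayed at or below 4.50 scaled counts in all 6 lanes, under background, and was not tested. Its identifier stem is that of SYCP1 probes described below, so a shared stem does not mean a shared annotation.

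The signalling and adhesion probes rose with the number as a block, as most of the panel did. Relative to the rest of the panel, the blocked fit called none of the probes in this paragraph. There WNT-5a changed by 0.58, neurofascin by 0.37 and comp287366 by 0.36 on the log2 scale. Protocadherin Fat 3 gave −0.37 and comp292779 −0.052, and edgeR adjusted p ran from 0.315 to 0.971. WNT-5a (comp249676), a secreted WNT ligand of morphogenetic movements, had 29.1, 31.6 and 203 in the D3 lanes, against 17.3, 3.86 and 55.3 in the D2.5 lanes. D2.5 replicate 2 was below background, D3 replicate 3 was far above the other lanes, and the groups overlapped. Its folds within the numbers were 1.68, 8.18 and 3.66, with a log2 fold change of 1.82 ± 0.38 (edgeR adjusted p = 2.9e-05). Neurofascin (comp293325), a cell adhesion molecule of axons, gave 45.7, 26.5 and 199 in the D3 lanes, against 9.80, 7.73 and 83.3 in the D2.5 lanes, a rise of 1.62 ± 0.40. Its D2.5 replicate 2 was below background. Protocadherin Fat 3 (comp284391), a large atypical cadherin, had 39.5, 8.85 and 55.2 in the D3 lanes, against 10.6, 11.6 and 27.3 in the D2.5 lanes. Pair 2 was lower at D3, with folds of 3.74, 0.763 and 2.02. It passed in edgeR (0.87 ± 0.33, adjusted p = 0.0116), not in limma (adjusted p = 0.073), and not without replicate 1 or replicate 3 (edgeR adjusted p = 0.301 and 0.289). X-linked retinitis pigmentosa GTPase regulator (comp287366), a protein of the cilium base, had 25.0, 15.8 and 118 in the D3 lanes, against 7.54, 3.22 and 47.4 in the D2.5 lanes, a rise of 1.60 ± 0.29. Here too D2.5 replicate 2 was below background. The leucine-rich repeat probe comp292779 ranged from 13.9 to 156 at D3 and 4.52 to 71.1 at D2.5 and rose by 1.21 ± 0.34. Only 2 of 3 D3 lanes and 1 of 3 D2.5 lanes were above background for it.

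The germ cell and meiosis probes were divided. Of 6 members, 5 were tested, 2 rose with the number as a block, 0 fell, and the median log2 fold change was 0.53, beside 36 of 41 and a median of 1.49 over all tested probes. The 0.53 is the value of Piwi-2, which had no D3 lane above background, so it is not a measured change of the list. HFM1 (comp293440) rose by 1.59 ± 0.37 (edgeR adjusted p = 0.00011) and ranged from 8.85 to 86.7 at D3 and 1.93 to 30.9 at D2.5, above background in 2 of 3 lanes of each stage. Only pair 3 had both lanes above background. Pair 1 had 8 raw counts at either stage, so its fold of 2.76 came from the lane factors. Pair 2 had 14 at D3 against 3 at D2.5, the latter below background. The SYCP1 probe comp292635 rose by 1.25 ± 0.32 and ranged from 14.6 to 141 at D3 and 5.80 to 66.1 at D2.5. It also exceeded background in only 2 of 3 lanes of each stage, and in both lanes of pair 3 alone. Its raw counts were 7 at D3 against 8 at D2.5 in pair 1 and 28 against 9 in pair 2. Another SYCP1 probe with the same identifier stem, comp292635_9, gave 16.6, 28.4 and 84.4 in the D3 lanes, against 21.1, 16.1 and 119 in the D2.5 lanes. Its log2 fold change was −0.025 ± 0.35 (edgeR adjusted p = 0.943), and replicate 3 was again the highest lane at both stages. D3 replicate 1 of this probe lay below background. The remaining SYCP1 probe, comp288706, was above background in 1 of the 6 lanes and was not tested. Piwi-1 had 3, 10 and 10 raw counts in the D3 lanes, against 22, 17 and 19 in the D2.5 lanes. All 3 D2.5 lanes were above their background and none of the D3 lanes was, and the raw counts did not overlap. The margin was small in replicate 2, with 17 against a background of 16.3 at D2.5 and 10 against 10.3 at D3. At mean + 3 SD, D2.5 replicate 2 would lie below the limit. On the reference scale the values were 6.24, 6.32 and 11.3 in the D3 lanes, against 16.6, 10.9 and 13.6 in the D2.5 lanes, overlapping, with a log2 fold change of −0.72 ± 0.38 (edgeR adjusted p = 0.0699; limma adjusted p = 0.037). Piwi-1 was the probe that fell when the positive controls set the scale (edgeR log2 fold change −1.18, adjusted p = 0.0186). Since D3 gives only a bound, the mean of Piwi-1 was at least 1.28-fold lower at D3 on that scale. That bound sets the D2.5 mean of 19.1 against a mean D3 background of 14.9, above the measured D3 mean of 8.54. It is a bound on the stage means, does not hold within every pair, and depends on the limit of mean + 2 SD. On the reference scale the D3 background of 16.8 exceeded the D2.5 mean of 13.7, so no bound is given. Piwi-2 had 8, 8 and 17 raw counts in the D3 lanes, against 8, 10 and 18 in the D2.5 lanes, with no D3 lane and 2 D2.5 lanes above background, and a log2 fold change of 0.53 ± 0.39 (edgeR adjusted p = 0.188).

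The probe that rose on the positive-control scale was comp293605, unannotated and singled out for that reason. It had 12.5, 6.95 and 46.2 in the D3 lanes, against 3.02, 2.58 and 12.2 in the D2.5 lanes, above background in 2 of 3 D3 lanes and 1 of 3 D2.5 lanes. Its log2 fold change was 1.36 with the positive controls (edgeR adjusted p = 0.0058) and 1.82 ± 0.39 with the reference probes.

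**Figure D3:**
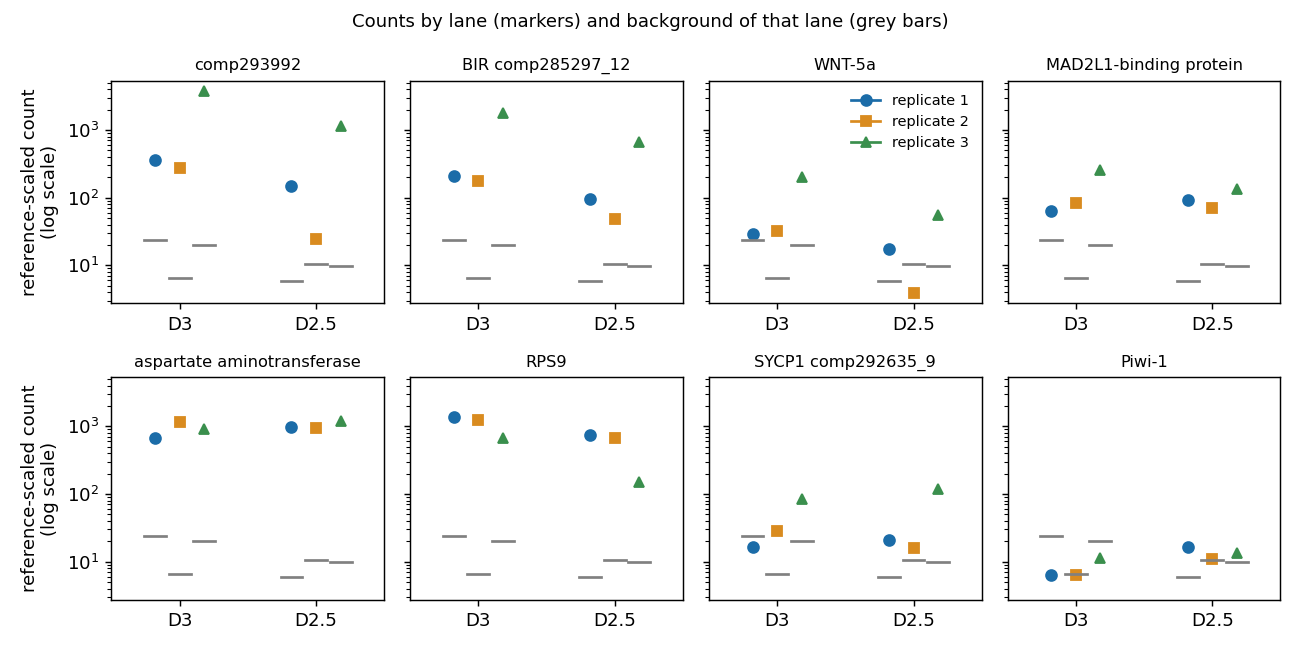
Reference-scaled counts (y axis, log scale) of 8 probes in each D3 lane (left) and D2.5 lane (right), with markers for the replicate number and a grey bar at the background of the same lane. Replicate 3 is the highest lane of both stages for comp293992, comp285297_12, WNT-5a and comp292635_9 and the lowest for RPS9, and all 3 D3 markers of Piwi-1 lie under their bars.

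Aspartate aminotransferase and the MAD2L1-binding protein were not called even with the block. Aspartate aminotransferase (comp293586), which passes amino groups between aspartate and glutamate, had 672, 1155 and 922 in the D3 lanes, against 970.2, 944 and 1202 in the D2.5 lanes. Its lanes overlapped, with means of 916 ± 242 at D3 and 1039 ± 142 at D2.5 (SD, n = 3 each) and a log2 fold change of −0.21 ± 0.47 (edgeR adjusted p = 0.676). The other probe of amino acid metabolism, hydroxylysine kinase (comp293109), an enzyme of lysine breakdown, gave 58.2, 44.9 and 288 in the D3 lanes, against 19.6, 15.5 and 108 in the D2.5 lanes. It rose by 1.49 ± 0.30 (edgeR adjusted p = 1.7e-05), a call lost without replicate 3 (0.0736). MAD2L1-binding protein (comp280581), which helps silence the spindle checkpoint, had 62.4, 82.2 and 257 in the D3 lanes, against 92.0, 70.2 and 135 in the D2.5 lanes. Its folds within the numbers were 0.678, 1.17 and 1.90, with a log2 fold change of 0.26 ± 0.37 (edgeR adjusted p = 0.515). Protein phosphatase 1D (comp267762), a phosphatase that damps the DNA damage response, had 25.0, 19.6 and 149 in the D3 lanes, against 15.1, 9.66 and 64.6 in the D2.5 lanes and rose by 1.04 ± 0.33, a call lost without replicate 3 (edgeR adjusted p = 0.204). Its D2.5 replicate 2 lay below background. The trinucleotide repeat-containing probe comp292626, annotated as chromatin binding, had 33.3, 55.0 and 243 in the D3 lanes, against 29.4, 15.5 and 96.2 in the D2.5 lanes and rose by 1.20 ± 0.28. That call was lost without replicate 2 or replicate 3 (edgeR adjusted p = 0.058 and 0.210). Relative to the panel, with the block, comp267762 gave −0.22 and comp292626 −0.070, and neither was called (edgeR adjusted p = 0.679 and 0.971).

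RPS9, a small-subunit ribosomal protein, was higher at D3 in every pair on the reference scale but did not follow the panel across lanes. It had 1391, 1233 and 675 in the D3 lanes, against 758, 676 and 152 in the D2.5 lanes. Replicate 3, the highest lane of the panel, was the lowest lane of RPS9 at both stages. The folds within the numbers were 1.84, 1.82 and 4.46, with a log2 fold change of 1.29 ± 0.46 (edgeR adjusted p = 0.0072). In raw counts the folds of RPS9 were 0.666, 1.86 and 2.84, and relative to the panel 0.863, 0.655 and 1.91. Without the block the log2 fold change was 1.06 ± 0.53 (edgeR adjusted p = 0.376), and without replicate 3 the blocked call was lost (edgeR adjusted p = 0.270). EF1A_B, the other probe of elongation factor 1 alpha, stayed at 1 to 8 raw counts in the 6 lanes, below background, and was not tested. EF1A_A and HCFC-1, a cofactor of transcription and chromatin, set the scale. Scaled by their joint factor, HCFC-1 had 72.8, 49.9 and 41.6 in the D3 lanes, against 46.7, 51.5 and 46.0 in the D2.5 lanes, and EF1A_A had 374, 545 and 654 in the D3 lanes, against 583, 529 and 593 in the D2.5 lanes. EF1A_A was lowest relative to HCFC-1 in D3 replicate 1.

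Set against the rest of the panel, few probes were called. Here each lane was divided by the geometric mean of the 13 target probes above background in all 6 lanes. Of 43 probes tested, 0 passed without the block (edgeR, 0% called; 1 at an unadjusted p under 0.05; limma and DESeq2 0), with a median log2 fold change of 0.20 and 28 positive. With the block 2 rose and 6 fell (edgeR, 4.65% called higher and 14.0% lower), and limma also gave 2 and 6. That limma fit used the same 6 lanes and gave every probe the same SE of 0.33. It is therefore no separate check of a probe's own spread. The rises were comp293931 (1.16 ± 0.37, edgeR adjusted p = 0.0151) and comp293992 (0.83 ± 0.31, edgeR adjusted p = 0.0442). Piwi-1, with no D3 lane above background, also passed as lower (edgeR adjusted p = 1.4e-05). Its size is a bound of at least 2.24-fold on the stage means, which does not hold within every pair and depends on the limit of mean + 2 SD. The bound sets the D2.5 mean of 27.2 against a mean D3 background of 12.1, above the measured D3 mean of 5.63. The other falls were aspartate aminotransferase (−1.47 ± 0.31), EF1A_A (−1.41 ± 0.30), comp292635_9 (−1.30 ± 0.31), HCFC-1 (−1.13 ± 0.39) and the MAD2L1-binding protein (−1.01 ± 0.30), with edgeR adjusted p between 0.00018 and 0.0288. By list, the median blocked change was 0.32 for the 21 unannotated probes (2 higher, 0 lower) and −0.010 for the 17 annotated targets (0 higher, 3 lower). It was −0.72 for the 5 germ cell and meiosis probes (0 higher, 2 lower), beside 0.21 over all 43 probes. The −0.72 is the value of Piwi-2, which had no D3 lane above background, so it is not a measured change of the list. RPS9 gave 0.021 ± 0.31, beside its rise against EF1A_A and HCFC-1. Aspartate aminotransferase, the MAD2L1-binding protein and comp293992 are themselves among the 13 probes that set this scale. EF1A_A and HCFC-1 set the other scale, so a panel that is higher against them puts them lower here by construction.

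None of these 8 calls passed in all 3 blocked fits that left out a pair. Without replicate 1, comp292635_9 and HCFC-1 passed. Without replicate 2, comp292635_9, Piwi-1, aspartate aminotransferase and EF1A_A did. Without replicate 3 the calls were Piwi-1, aspartate aminotransferase, EF1A_A, the MAD2L1-binding protein and, as a rise, comp292315. Neither comp293931 nor comp293992 passed in any of those 3 fits. comp292635_9, with D3 replicate 1 below background, had 16.5, 36.9 and 18.6 in the D3 lanes, against 44.7, 58.1 and 60.8 in the D2.5 lanes. It was the only tested probe whose D3 lanes all lay below its D2.5 lanes (2.33%). Hydroxylysine kinase was the only one with all D3 lanes above (2.33%), at 57.9, 58.2 and 63.4 in the D3 lanes, against 41.5, 55.8 and 55.7 in the D2.5 lanes, though its log2 fold change of 0.23 ± 0.30 did not pass (edgeR adjusted p = 0.655).

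**Figure D4:**
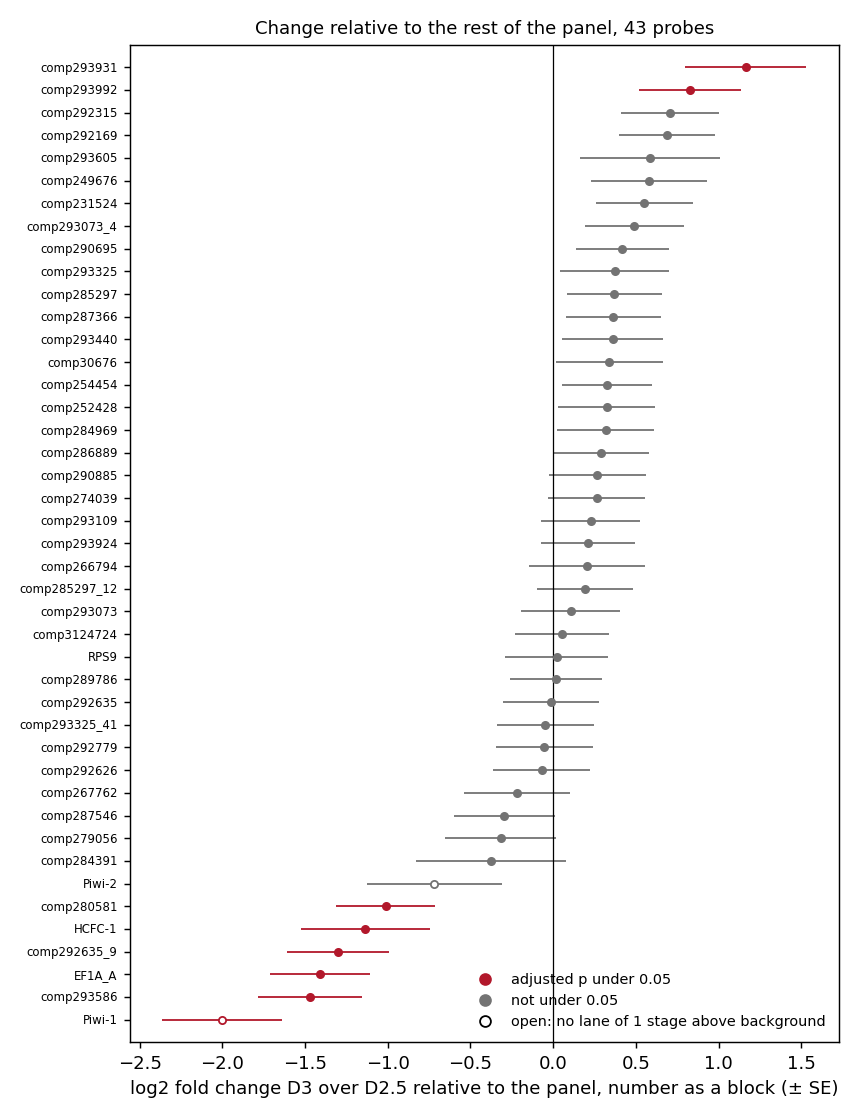
Log2 fold change of D3 over D2.5 relative to the panel with the replicate number as a block (x axis, ± SE) for 43 probes (y axis, ordered by value). The 2 rises, comp293931 and comp293992, are at the top, and the 6 falls at the bottom, with the other 35 probes between. Open points, Piwi-1 and Piwi-2, had no D3 lane above background, so their fitted size and rank are not measured changes.

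Shares of the target counts need no reference probe, but in each lane they add to a fixed total. A lower share of an abundant probe therefore raises the shares of the others, so the shares below are not independent. Aspartate aminotransferase took 20.9%, 39.1% and 5.31% of the target counts in the D3 lanes, against 50.3%, 65.2% and 16.8% in the D2.5 lanes. It was lower at D3 in each numbered pair, although D3 replicate 2, at 39.1% (95% Wilson interval 37.7 to 40.5), exceeded D2.5 replicate 3, at 16.8% (95% Wilson interval 16.1 to 17.6). comp293992 took 11.2%, 9.21% and 21.6% in the D3 lanes, against 7.66%, 1.69% and 16.2% in the D2.5 lanes. Its lowest share, 1.69% (95% Wilson interval 1.23 to 2.31), was that of D2.5 replicate 2, and its highest, 21.6% (95% Wilson interval 21.0 to 22.3), that of D3 replicate 3. The share of comp292315 was 14.8%, 9.38% and 13.2% in the D3 lanes, against 6.49%, 3.20% and 11.6% in the D2.5 lanes. Intervals cover counting error only and not the spread between lanes. On the reference scale aspartate aminotransferase was not called in the blocked fit (−0.21 ± 0.47, edgeR adjusted p = 0.676), and its fold in pair 2 was 1.22. Over the 43 target probes, the profile of log2(count + 1) correlated with that of adult testes at r = 0.626, 0.605 and 0.846 in the D3 lanes, against 0.496, 0.331 and 0.712 in the D2.5 lanes. These values describe the lanes, whose depth and background differ, and replicate 3 was the highest at both stages.

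The comparison of D3 with D2.5 could be set against other steps of the course without sharing lanes, in the fit that ignores the replicate number and calls 0 for D3 against D2.5 itself. In the column names the D2 and D1 lanes carry the same date and tag as the D3 and D2.5 lanes. For D2 against D1 the median log2 fold change of the 41 probes was 1.38 with 35 positive. That step had 1 call, RPS9 (log2 fold change 2.22, edgeR adjusted p = 0.0248), and 9 probes at an unadjusted p under 0.05. No probe passed a test of the difference between the 2 steps (edgeR interaction, 0% called, 0 at an unadjusted p under 0.05, lowest adjusted p = 0.981), and limma also called 0. The median difference between the steps was −0.028. For D5 against D4, whose lanes carry another date and tag, the median was −0.099 with 15 of 41 positive. The difference between the D3 step and that one had a median of 1.53, with 0 probes passing (edgeR, 0% called, 1 at an unadjusted p under 0.05, lowest adjusted p = 0.582).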

How the data were processed

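RNA of whole embryos was counted on the NanoString nCounter. Raw counts entered as deposited, 1 column per lane, whole numbers with a lowest value of 1, as the file headers and the values show. Normalized signal values deposited by the authors, with EF1A_A near 1 common value in every lane, entered as an alternative. Their recipe is not given in the sources used here. Per the column names, the D1 to D3 lanes share 1 date and tag (12 lanes). Whether these mark an instrument run is not stated there. Raw target counts per lane ran from 1545 to 15415, and pairs of lanes within a stage differed by a chi-square per degree of freedom of 5.83 to 152, so none was counted as a duplicate. Biological triplicates are stated, but separate clutches are not. The p-values of the main fit without a block rest on a spread pooled over the 18 embryo lanes. Those of the blocked fits rest on what is left after the replicate number is removed, with information on spread shared between probes. Neither can be read as the spread between clutches.

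Background was the mean + 2 SD of a lane's 8 negative controls. Probes above it in at least 3 of 18 embryo lanes were tested, 43 of 49. The reference scale used EF1A_A and HCFC-1 (41 probes tested, 38 of them targets), and factors had a mean of 1. The panel scale used the 13 target probes above background in all 6 lanes (43 tested). The 18 embryo lanes were fitted by stage in edgeR 4.0.16 under R 4.3.3 (robust quasi-likelihood), with Benjamini-Hochberg adjustment over all probes tested and a threshold of 0.05. SE is the log2 fold change over the square root of F. limma 3.58.1, on log2(scaled count + 1), and DESeq2 1.42.0 were alternatives. The fits were also run on simulated counts with the pairing and lane factors taken as known, so that run tests neither. Tests were two-sided.

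To check whether numbers pair lanes, deviations from the stage means were correlated over 38 target probes. Same-number lanes gave 0.173, 0.502 and 0.794, all above the limit of 0.1. D3 replicate 2 correlated more with D2.5 replicate 1 (0.304) than D3 replicate 1 did, and D3 replicate 1 with D2.5 replicate 2 gave 0.154, so numbers 1 and 2 exchanged would meet the limit too. That exchanged pairing was not fitted. The pairing used therefore comes from the values, chiefly those of replicate 3. The blocked fit used the 6 lanes.

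Named probes were the 6 reference probes, annotated target probes (by range where not above background in all 3 D3 lanes), and the 4 highest and 4 lowest fold changes on each scale among the 16 probes above background in all 6 lanes. The members and lists were chosen with earlier results of these data known. Probe sequences are not used here.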

Additional observations from a re-analysis of the deposited data

How the results depend on the processing

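Without a block the count of calls was 0 on both scales under every alternative run, and the blocked fits were the ones that differed. On the reference scale the replicate block gave 36 calls, 35 in limma (34 higher and 1 lower), 36 with EF1A_A alone, 33 with HCFC-1 alone and 2 with the positive controls. Blocked fits that left out number 1, 2 or 3 gave 33, 35 and 26, and fits without the block that left out a lane or a number gave 0. On the panel scale the replicate block gave 8 calls, 8 in limma, 4 with TMM factors and 4 with the sum of the target counts. Blocked fits that left out number 1, 2 or 3 gave 2, 4 and 5, and fits without the block that left out a lane or a number gave 0. Fits without both lanes of a number were chosen after seeing the data. In all of these the cause was not tested. The difference in panel level stayed positive, at 0.45 to 2.30 with 1 lane left out. Probes above background in all 3 lanes numbered 25 at D3 and 15 at D2.5, against 21 and 12 with a limit of mean + 3 SD. The test against the step of D2 over D1 called 0 throughout. Single log2 fold changes that turned sign on the panel scale were 0.034 for RPS9 and 0.040 for comp292779 in limma, with the block in limma alike; 0.021 for RPS9 and −0.010 for comp292635 with the replicate block; 0.072 for comp292779 after subtracting the negative control mean; −0.016 for comp285297_12 and −0.15 for comp292635 with TMM, and −0.023 for comp285297_12 and −0.18 for comp292635 with TMM and the block; −0.086 for comp292635 with DESeq2's size factors. The sum of the target counts gave 0.013 for RPS9, 0.14 for comp292626 and 0.10 for comp292779, and with the block 0.28 for RPS9, 0.13 for comp292626 and 0.12 for comp292779. On the reference scale with the block, comp292635_9 gave 0.065 with EF1A_A alone and comp280581 gave −0.23 with the positive controls. The leave-out ranges that follow pool fits with and without the block. Leaving out a lane or a number moved log2 fold changes across 0 on the reference scale, over −0.45 to 0.77 for comp280581, −0.42 to 2.37 for comp267762, −0.084 to 2.30 for comp292626, −0.49 to 3.31 for comp285297_12, −0.41 to 3.55 for comp266794, −0.091 to 3.82 for comp292169, −0.49 to 4.08 for comp293992, −0.68 to 3.26 for comp292635, −1.18 to 1.22 for comp292635_9, −0.051 to 3.20 for comp293440, −0.40 to 4.17 for comp285297, −0.83 to 2.26 for comp287546 and −0.94 to 3.46 for comp292779. On the panel scale the ranges that crossed 0 were −0.96 to 0.35 for RPS9, −0.33 to 0.25 for comp292626, −0.16 to 0.53 for comp285297_12, −0.12 to 0.75 for comp266794, −1.13 to 0.43 for comp284391, −0.28 to 0.51 for comp292635, −1.10 to 0.045 for comp287546 and −0.54 to 0.55 for comp292779. Counts near the lane background of 7.78 to 17.8 raw counts limit the low probes, and 3 lanes a stage limit all of them.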
